A study of Homo sapiens with 6 samples.

Results

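The genes described here are 10 subunit genes of the general transcription factor TFIID: TBP, the TATA-binding protein, and the TBP-associated factors TAF13, TAF11, TAF12, TAF10, TAF8, TAF7, TAF4, TAF4B and TAF1. They were chosen by symbol, with TAF13 already known to be among the largest falls in these libraries. The difference between the conditions is therefore given for them as a description. Where their calls in the test run over all genes are listed, nothing is read from those calls. All 10 were found among the 56638 gene symbols of the count files, and all 10 were among the 23074 genes that passed the filter on low counts. RNA sequencing compared 3 libraries of human colorectal cancer cells transfected with nonspecific control siRNA and 3 libraries transfected with siRNA against GLCC1, a long non-coding RNA that the study linked to glucose metabolism and c-Myc. Both groups carried an siRNA and came from a single cell line at passage 16 to 19, which the labels name SW480 and the methods of the study name DLD-1. Titles, source names and genotypes set the groups used here. The library names disagree: those of the control siRNA group read AF123 and those of the GLCC1 siRNA group read NC, and if they were right the sign of every difference below would turn.

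TFIID is the complex that recognizes core promoters and seeds the assembly of the RNA polymerase II initiation machinery. TBP bends the DNA at the TATA region, TAF1 is the large scaffold that contacts the start site and binds TBP, and TAF7 binds TAF1. Many TAFs carry a histone fold and enter the complex as pairs, among them TAF11 with TAF13, TAF8 with TAF10, and TAF12 with TAF4 or its paralogue TAF4B. TAF10 and TAF12 are also subunits of the SAGA coactivator complex, which holds histone acetyltransferase and deubiquitinase modules.

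TAF13 lies on the minus strand of chromosome 1 (hg19, chr1:109605118-109618634), and its canonical transcript has 4 exons and 814 nt in GENCODE 44. The 250 bases before its start site in RefSeq (GRCh38.p14, chr1:109076004-109076253, minus strand) are shown because TAF13 is the gene on which the difference turns. They are printed 5′ to 3′ in lower case, and capitals would mark the c-Myc E-box word CACGTG or the TATA word TATAAA on either strand.
TAF13 promoter: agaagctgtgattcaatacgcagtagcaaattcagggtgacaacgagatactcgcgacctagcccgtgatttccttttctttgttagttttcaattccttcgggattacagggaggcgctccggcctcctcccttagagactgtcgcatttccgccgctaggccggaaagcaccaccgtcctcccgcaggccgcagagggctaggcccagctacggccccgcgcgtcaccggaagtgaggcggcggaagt
Neither word occurred in it. Of the 9 members with a promoter in the RefSeq table, with 250 bases before and 50 after the start, TAF12 and TAF4B held CACGTG, as did 11.9% of the 11513 tested genes with a promoter. TATAAA occurred in the promoter of TAF4B alone among the 9, and in 9.42% of those genes.

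The stretch of the GLCC1 insert that siRNA 1 targets is shown because the search for its seed in TAF13 rests on it, and the letters that pair with the seed are in capitals. The genotype labels carry the number 1 in all 6 libraries, and whether siRNA 1 was the one sequenced is not stated elsewhere in the sources used here.
GLCC1 target of siRNA 1: ggaagagcaacACCTTGAA
The words ACCTTGA and CCTTGAA pair with bases 2 to 8 and 1 to 7 of the guide strand. One or both stood in the canonical 3′ UTR of 2718 of 13479 tested genes (20.2%). None of the 3 coding transcripts of TAF13 held either word at any position. A match is a description of letters, and its part in any difference was not tested.

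The libraries held between 11948790 and 19042516 read pairs counted on genes, and GLCC1 siRNA replicate 2 was the shallowest. It also stood apart from the other libraries of its condition, with a chi-square per degree of freedom of 18.1 and 18.9 against them, where the other pairs of the same condition gave 1.91 to 4.12. Of 10 colon epithelium markers, 9 reached a CPM (counts scaled to the library total) of 10 in every library and KRT20 did not. Their summed level was 5523 to 5928 CPM in the control libraries and 2398 to 2813 CPM in the GLCC1 siRNA libraries, and the keratins KRT8, KRT18 and KRT19 made up most of it. By log2 fold change KRT18 stood at -1.82, KRT8 at -1.61, KRT19 at -1.34 and KRT20, under 1 CPM, at -0.92. CDX1 stood at -0.96, LGALS4 at -0.66, CDH1 at -0.53, EPCAM at -0.30, CDX2 at -0.24 and VIL1 at 0.21. At an adjusted p under 0.05 in edgeR, 7 of the 10 fell and none rose. Of all tested genes 16.8% fell and 14.9% rose, and 45.1% of those averaging 1 CPM or more passed in either direction. None of 8 markers of fibroblasts, endothelium and leukocytes reached 10 CPM in every library, and COL1A2, DCN, PECAM1 and PTPRC had no count. Their sum was 11.7 to 15.1 CPM against 7.37 to 9.95 CPM, nearly all of it COL1A1, which fell by 0.86 on the log2 scale (SE 0.14, adjusted p 0.00029 in edgeR). The part of these markers in the results below was not tested. No row carries the symbol GLCC1, so the level of the target was not analysed here, and in bulk RNA fewer cells of a kind and less RNA per cell cannot be told apart.

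TAF13, the histone-fold partner of TAF11, was far lower after GLCC1 siRNA. Its raw counts were 448, 590 and 546 in the control libraries and 102, 90 and 90 in the GLCC1 siRNA libraries. As CPM scaled by TMM factors, which offset differences in the composition of libraries, the control libraries stood at 30.7, 32.5 and 32.9, with a mean of 32.0 ± 1.16 (SD, n = 3). The GLCC1 siRNA libraries stood at 5.32, 7.16 and 5.03 CPM, with a mean of 5.84 ± 1.15 (SD, n = 3). Every GLCC1 siRNA library lay far below every control library, and the highest of them was the shallow replicate 2. The mean was 5.49-fold lower, and the fitted log2 fold change was -2.48 with a standard error of 0.13. Ordered from the lowest log2 fold change, TAF13 was number 192 of all 23074 genes tested, number 20 of the 14875 averaging 1 CPM or more and number 5 of the 10378 with at least 10 CPM.

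TAF11, on chromosome 6 (hg19, chr6:34845239-34856969, minus strand), was lower by a smaller amount. It held 24.2, 24.5 and 24.6 CPM in the control libraries and 16.7, 15.5 and 16.8 CPM in the GLCC1 siRNA libraries. The means were 24.4 ± 0.191 and 16.3 ± 0.721 CPM (SD, n = 3 each), and the log2 fold change was -0.58 (SE 0.10). The libraries of the conditions did not overlap, and those within a condition lay close together. The partner genes did not move by the same amount: relative to the control mean, the log2 ratio of TAF13 to TAF11 was -0.05, 0.02 and 0.03 in the control libraries. After GLCC1 siRNA the ratio was -2.05, -1.51 and -2.13, a mean of -1.89 ± 0.34 (SD, n = 3), with replicate 2 the least changed. These ratios come from the values that chose TAF13 and carry no test.

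**Figure D1:**
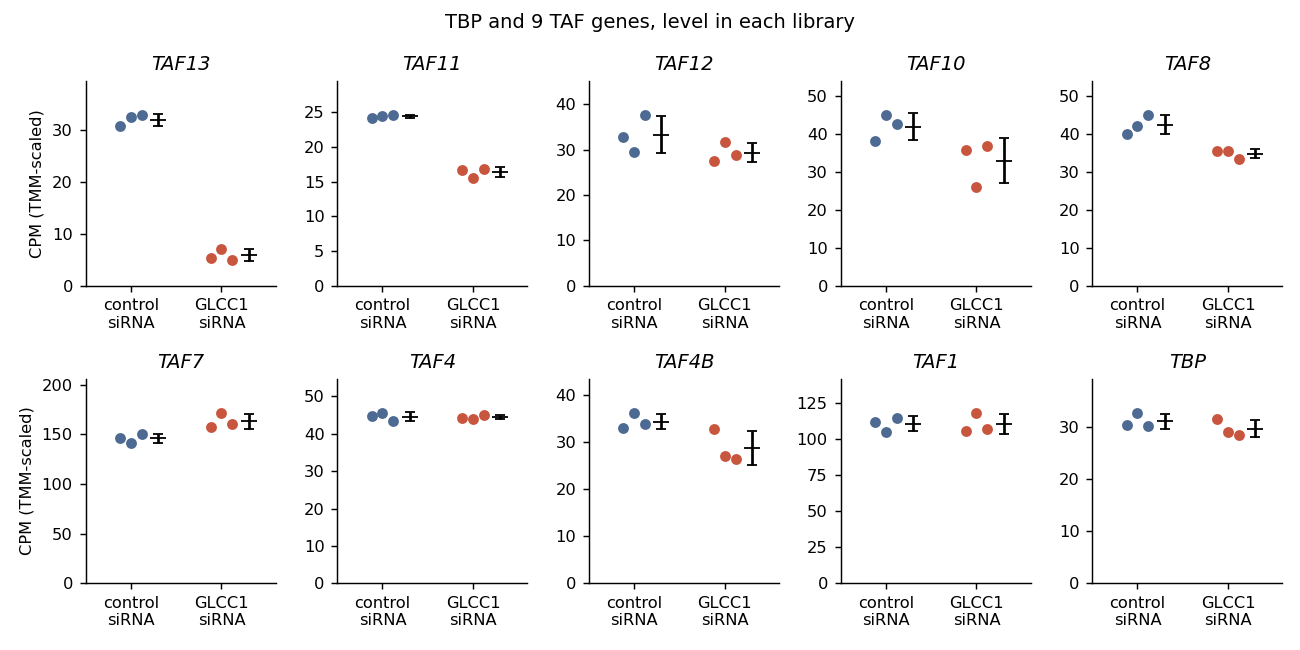
Level of TBP and the 9 TAF genes in each library, in CPM scaled by TMM factors, with a linear axis from 0 in each panel. Points are libraries and the bars are mean ± SD (n = 3); TAF13 stood at 30.7 to 32.9 CPM in the control libraries and 5.03 to 7.16 CPM in the GLCC1 siRNA libraries, whereas TAF4, TAF12, TAF1 and TBP overlapped.

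**Figure D2:**
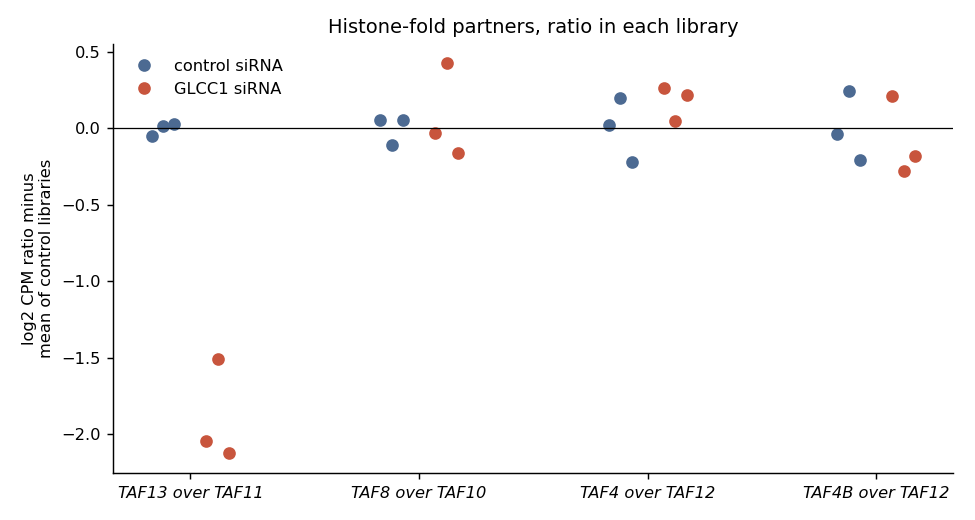
Log2 ratio of the CPM of histone-fold partners in each library, set to 0 at the mean of the 3 control libraries. The ratio of TAF13 to TAF11 lay between -2.13 and -1.51 after GLCC1 siRNA, and the ratios of the other pairs lay within 0.43 of the control mean.

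TAF8 and TAF10, which pair through their histone folds before TAF10 enters the nucleus, were both lower in every GLCC1 siRNA library. TAF8 (hg19, chr6:42018251-42055199, plus strand) held 40.0, 42.3 and 45.0 CPM in the control libraries and 35.4, 35.5 and 33.5 CPM after GLCC1 siRNA, with a log2 fold change of -0.29 (SE 0.09). TAF10 (hg19, chr11:6627524-6633770, minus strand) held 38.0, 44.9 and 42.6 CPM in the control libraries and 35.7, 26.1 and 36.9 CPM after GLCC1 siRNA, with a log2 fold change of -0.34 (SE 0.13). The lowest TAF10 value was that of replicate 2, and the other libraries of its condition lay just below the lowest control library. The log2 ratio of TAF8 to TAF10 after GLCC1 siRNA was -0.03, 0.43 and -0.16 relative to the control mean, on both sides of 0. The exons of TAF10 overlap those of ILK on the opposite strand over 2375 of 5820 nt (40.8%). Whether the counting used strand is not given in the sources used here, and without strand a read pair on both genes would be given to neither. ILK itself held between 23 and 46 counts per library.

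TAF12, which pairs with TAF4 or TAF4B and is shared with SAGA, did not separate the conditions. The TAF12 level (hg19, chr1:28914341-28974803, minus strand) was 32.8, 29.6 and 37.6 CPM in the control libraries and 27.5, 31.6 and 28.9 CPM after GLCC1 siRNA. GLCC1 siRNA replicate 2 lay above the lowest control library, and the log2 fold change was -0.19 (SE 0.11). TAF4, a core subunit that activators contact (hg19, chr20:60528525-60640937, minus strand), held 44.8, 45.6 and 43.4 CPM in the control libraries and 44.4, 43.9 and 45.1 CPM after GLCC1 siRNA. Its means of 44.6 ± 1.13 and 44.4 ± 0.595 CPM (SD, n = 3 each) were almost equal, and its log2 fold change was -0.004 (SE 0.09). Its paralogue TAF4B, best known from germ cells (hg19, chr18:23806409-23971649, plus strand), held 33.2, 36.3 and 33.9 CPM against 32.9, 27.0 and 26.4 CPM. The GLCC1 siRNA libraries of TAF4B lay below the controls, replicate 1 by a narrow margin, and the log2 fold change was -0.26 (SE 0.11). The log2 ratio of TAF4B to TAF4 was -0.06, -0.33 and -0.40 after GLCC1 siRNA and -0.06, 0.04 and 0.02 in the control libraries, so replicate 1 lay within the range of the controls.

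TAF7, which binds TAF1 and restrains its activity, was the member with a higher level in every GLCC1 siRNA library. TAF7 (hg19, chr5:140639452-140700351, minus strand) held 146, 142 and 150 CPM in the control libraries and 158, 172 and 160 CPM after GLCC1 siRNA, with a log2 fold change of 0.16 (SE 0.08). TAF1, the scaffold subunit (hg19, chrX:70586072-70752224, plus strand), held 112, 105 and 115 CPM against 106, 118 and 107 CPM. Its libraries overlapped, and its log2 fold change was -0.006 (SE 0.09). TBP, the DNA-binding subunit that also serves RNA polymerases I and III (hg19, chr6:170863390-170881958, plus strand), held 30.3, 32.7 and 30.1 CPM against 31.4, 29.0 and 28.5 CPM. The TBP libraries overlapped as well, and the log2 fold change was -0.06 (SE 0.10).

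Of the 10 genes, 3 had an adjusted p under 0.05 in the quasi-likelihood test of edgeR, TAF13, TAF11 and TAF8, all of them lower, and 7 did not. The percentage of all tested genes that passed was 31.6%, with 16.8% lower and 14.9% higher, and among genes averaging 1 CPM or more 45.1% passed. Since the genes were listed with results of this contrast known, nothing is read from the count. TAF8 did not pass with library totals as the scale, where TAF7 passed as higher instead, with the replicate block, without any 1 of the control libraries, or without GLCC1 siRNA replicate 1 or 3. In the order of the test TAF8 was the last gene to pass, at a log2 fold change of -0.29, and TAF10, at -0.34 with a wider spread, did not. The GLCC1 siRNA libraries lay entirely below the controls for 5 genes, entirely above for 1, TAF7, and overlapped them for 4. Such a separation was found for 46.3% of all tested genes, 24.1% lower and 22.2% higher, and for 59.1% of those with at least 1 CPM. The log2 fold change was negative for 9 of the 10, for 7 with DESeq2 size factors and for 6 with library totals as the scale, where TAF4 and TAF1 in both and TBP in the latter changed sign. The median was -0.22, beside 0.03 for all tested genes and -0.03 for those with at least 1 CPM.

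Without GLCC1 siRNA replicate 2, which stood apart, 7 of the 10 genes passed in edgeR: TAF13, TAF11, TAF12, TAF10, TAF8 and TAF4B lower and TAF7 higher. TAF13 then had a log2 fold change of -2.62. The percentage of all tested genes that passed was 44.2%, beside 31.6% with all 6 libraries. Among genes averaging 1 CPM or more, 45.1% passed with all 6 libraries, and their share in this fit was not worked out. Nothing is read from the 7 calls. The summed level of the 10 genes was 533 to 555 CPM in the control libraries and 489 to 506 CPM in the GLCC1 siRNA libraries. TAF13 made up 5.77% to 6.07% of this sum in the control libraries and 1.03% to 1.41% in the others. Without TAF13 the sum was 502 to 522 CPM in the control libraries and 483 to 499 CPM in the GLCC1 siRNA libraries.

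**Figure D3:**
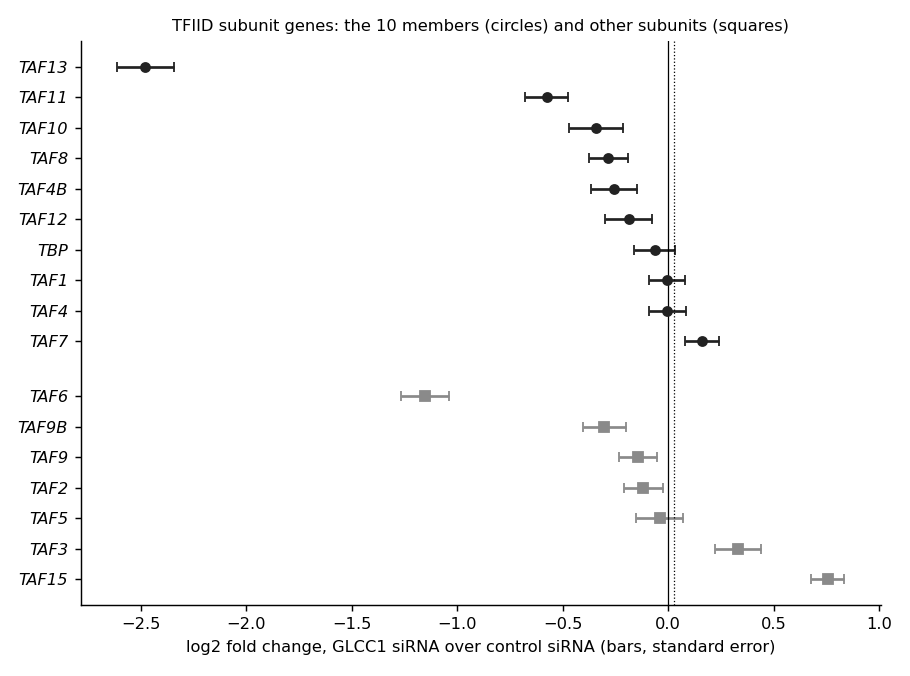
Fitted log2 fold change, GLCC1 siRNA over control siRNA, of the 10 genes (circles) and of 7 other TFIID subunit genes with at least 1 CPM (squares), with bars of 1 standard error. The solid line is 0 and the dotted line is the median of all tested genes, 0.03; TAF13 stood at -2.48 and TAF6 at -1.15, whereas TAF15 stood at 0.76.

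Levels of different genes can be compared only per length, and the length was taken once as the union of all exons and once as the canonical transcript. In control libraries TAF7 was the highest of the 10 at 48.3 CPM per kb with the exon union and 63.6 with the canonical transcript. TAF8 was the lowest at 3.22 and 6.35 CPM per kb. TAF13 ranked 3 at 11.6 ± 0.419 CPM per kb of exon union, behind TBP at 13.4 ± 0.613 and ahead of TAF1 at 9.87 ± 0.460 (SD, n = 3 each), and the libraries of these 3 genes did not overlap. With the canonical length TAF13 ranked 2 at 39.4 ± 1.42 CPM per kb (SD, n = 3). After GLCC1 siRNA it stood last with the exon union, at 2.11 CPM per kb, and at rank 7 with the canonical length, at 7.17 CPM per kb. In that condition its libraries overlapped those of TAF11 and TAF8 with the exon union, and those of TAF11, TAF10 and TAF4B with the canonical length. The other orders changed with the length used, and TAF12 moved from 3.87 to 25.0 CPM per kb in control libraries. Neighbours whose control libraries overlapped were TAF10 and TAF4B with both lengths, and TAF4, TAF12 and TAF11 in turn with the exon union. The exon union of TAF10 includes 2375 of 5820 nt shared with ILK, so its level per kb could be too low if counting ignored strand.

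**Figure D4:**
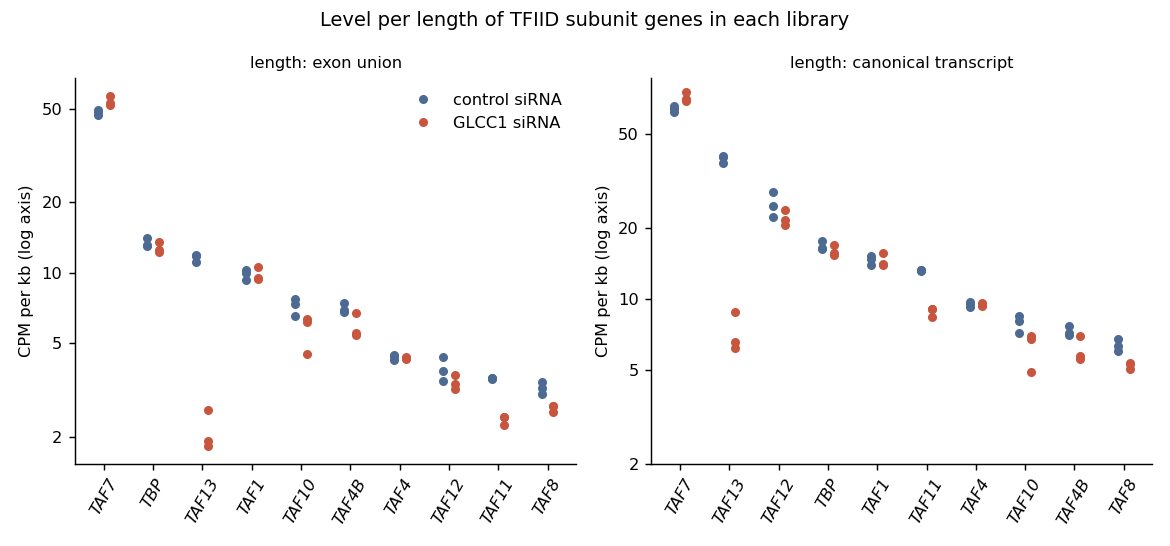
Level per length in each library, in CPM per kb on a log axis, with the exon union (left) and the canonical transcript (right) as the length and genes ordered by their control mean. TAF7 is the highest and TAF8 the lowest of the control libraries in both panels, and TAF13 is the gene whose points lie far apart between the conditions.

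The genes with at least 1 CPM whose profile over the 6 libraries was nearest to that of TAF13 were not TFIID subunits. Likeness was measured as the root mean square difference of log2 CPM, each gene being centred on its control mean. The nearest were ALPPL2, a placental-type alkaline phosphatase, at 0.09, the ectonucleotide pyrophosphatase ENPP1 at 0.16, the membrane scaffold MPP1 and the lysosomal thioesterase PPT1 at 0.19 each, and CRIP2, a LIM-domain protein, at 0.20. Their log2 fold changes lay between -2.67 and -2.36. TAF11 was the nearest of the other 9 members, at rank 1906 of 14874 genes and a difference of 1.34, and TAF7 the farthest, at rank 9719. These distances come from the values that chose TAF13 and largely follow the size of the fall. Genes with similar falls were therefore bound to be near, and the ranks carry no test.

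On chromosome 1 the tested genes on both sides of TAF13 were also lower after GLCC1 siRNA. WDR47, a WD-repeat gene of the minus strand 20383 nt away, held 32.1, 28.5 and 29.6 CPM in the control libraries and 14.4, 17.1 and 14.2 CPM after GLCC1 siRNA. The fitted difference was -0.99 on the log2 scale (SE 0.11), with an adjusted p of 1.8e-05 in edgeR. TMEM167B, a gene of the plus strand 14752 nt away, held 25.4, 24.1 and 22.6 CPM against 15.3, 14.4 and 13.0 CPM. Its log2 fold change was -0.75 (SE 0.11), with an adjusted p of 0.00015 in edgeR. For both, every GLCC1 siRNA library lay below every control library. A window of 500 kb on each side was chosen after these values were seen. Besides TAF13, 14 genes with at least 1 CPM were placed in it by gene symbol. WDR47 and TMEM167B are counted among the 14. Of the 14, 6 fell, 2 rose and 6 did not pass, and their median log2 fold change was 0.02. Among all genes averaging 1 CPM or more, 45.1% passed and the median was -0.03. The count files hold some older symbols, so a gene named differently in the annotation would be missing from the 14. It would be missing from the search for neighbours too. The split and the median therefore describe the genes placed, which may not be all those in the window.

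The genes around TFIID that the choice of the 10 did not use comprised 69 symbols in 6 lists. These lists too were chosen with earlier results of these data known. The adjusted p of their genes are those of edgeR over all tested genes. The counts of calls below stand beside 31.6% of all tested genes, or 45.1% of those averaging 1 CPM or more, and nothing particular to a list is read from them. Of 9 other TFIID subunits 8 were tested, TAF1L not, with 2 falls, 2 rises (50% called) and a median of -0.08. TAF6, the histone-fold partner of TAF9, held 42.6, 48.4 and 45.5 CPM in the control libraries and 23.1, 17.4 and 20.7 CPM after GLCC1 siRNA. It fell by 1.15 on the log2 scale (SE 0.11, adjusted p 5.8e-06 in edgeR), the larger fall of the list. TAF15, an RNA-binding protein of the FET family found with a part of TFIID, held 189, 176 and 191 CPM against 307, 326 and 308 CPM. It rose by 0.76 (SE 0.08, adjusted p 7.8e-06 in edgeR). TAF9B, a paralogue of TAF9, changed by -0.30 (adjusted p 0.036) and TAF3, which reads methylated histone H3, by 0.33 (adjusted p 0.031), and in edgeR both lost their call in 6 or more of the alternatives, among them the fit without any 1 of the control libraries.

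Of 5 relatives and regulators of TBP, which include BTAF1 and the negative cofactor of DR1 and DRAP1, 4 were tested and none passed in edgeR. None of the 4 had an unadjusted p under 0.05 in edgeR, and the median was 0.06. DESeq2 called 0 of them, beside 29% of all tested genes. Of the 7 TAFs and TBP partners of RNA polymerases I and III, 1 fell (14.3% called), none rose and the median was -0.17. That gene was TAF1C of the polymerase I factor SL1, at -0.33 (SE 0.11, adjusted p 0.032 in edgeR). TAF1C lost its call with library totals as the scale, with the replicate block, and without any 1 of the control libraries or GLCC1 siRNA replicate 3. Among the other general transcription factors 17 of 18 were tested, with 2 rises, 2 falls (23.5% called) and a median of 0.03. The falls were CDK7, the kinase of TFIIH, at -0.73 (SE 0.10) and ERCC3, its translocase, at -0.36 (SE 0.08), with adjusted p of 0.00011 and 0.0041 in edgeR. The rises were GTF2H1, the p62 subunit of the same factor, at 0.62 (SE 0.09, adjusted p 0.00011 in edgeR) and GTF2F2 of TFIIF at 0.31 (SE 0.11, adjusted p 0.038, a call lost with the replicate block and without control siRNA replicate 2 or 3 or GLCC1 siRNA replicate 3). Subunits of TFIIH thus passed in both directions.

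All 18 listed SAGA subunits other than the TAFs shared with TFIID were tested, and 5 rose, 2 fell (38.9% called) and the median was 0.16. The largest rise was that of SUPT3H, whose protein holds histone folds like those of TAF13 and TAF11, at 6.79, 7.11 and 6.87 CPM in the control libraries and 13.4, 14.9 and 13.3 CPM after GLCC1 siRNA. Its log2 fold change was 1.00 (SE 0.12), with an adjusted p of 3.5e-05 in edgeR, opposite in sign to that of TAF13. TAF5L, the SAGA counterpart of TAF5, rose by 0.79 and the acetyltransferase KAT2B by 0.77, with adjusted p of 1.5e-05 and 5.6e-05 in edgeR. The splicing factor SF3B5, also a SAGA subunit, fell by 0.74 (SE 0.17, adjusted p 0.0045 in edgeR). The activator-binding TRRAP fell by 0.28 (adjusted p 0.023 in edgeR). This call was lost with library totals as the scale and without any 1 of the control libraries.

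All 12 RNA polymerase II subunits were tested, with 5 falls, 1 rise (50% called) and a median of -0.30. POLR2E, a subunit shared by all 3 nuclear polymerases, held 134, 146 and 143 CPM in the control libraries and 101, 67.0 and 96.3 CPM after GLCC1 siRNA. Every GLCC1 siRNA library lay below the controls, replicate 2 farthest, and the log2 fold change was -0.67 (SE 0.13, adjusted p 0.0011 in edgeR). POLR2J changed by -0.49 and POLR2G by -0.40, with adjusted p of 0.019 and 0.0072 in edgeR. Both lost their call without control siRNA replicate 3, and POLR2J also without control siRNA replicate 2 and with library totals as the scale. The rise was that of POLR2D, the partner of POLR2G in the stalk, at 0.57 (SE 0.10, adjusted p 0.00048 in edgeR).

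**Figure D5:**
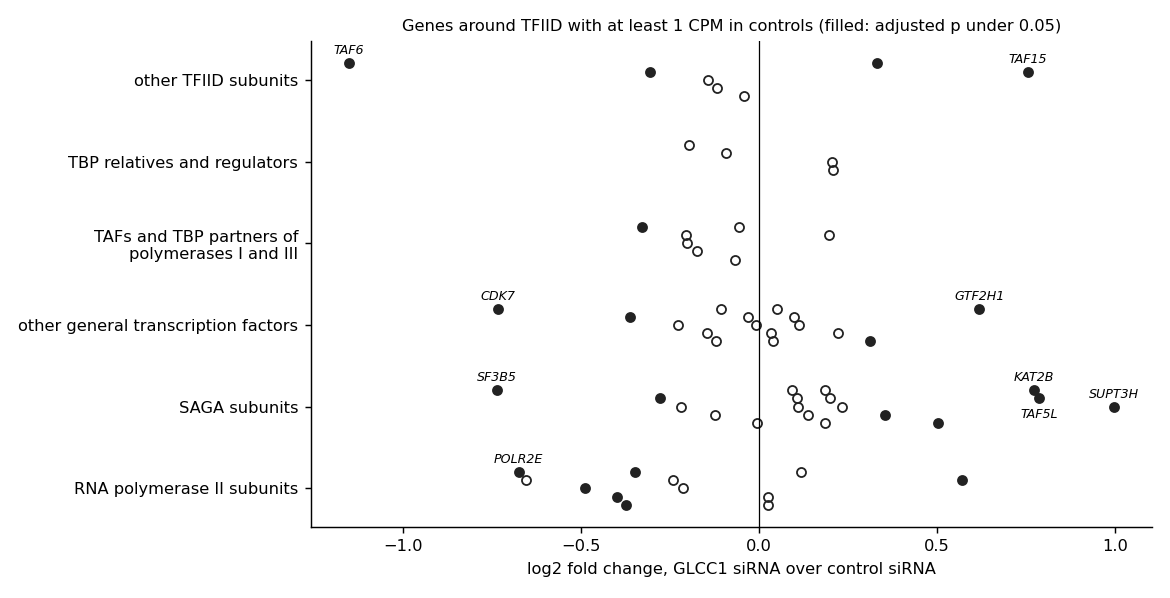
Log2 fold change, GLCC1 siRNA over control siRNA, of the genes of the 6 lists around TFIID that had at least 1 CPM in the control libraries, 1 point per gene and spread vertically for legibility. Filled points had an adjusted p under 0.05 in edgeR; TAF6 at -1.15 and SUPT3H at 1.00 lie farthest from 0.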

How the data were processed

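RNA sequencing of 6 libraries was used, 3 labelled control siRNA and 3 labelled GLCC1 siRNA. Per gene symbol, the authors deposited whole-number counts, made from read pairs mapped to hg19 with TopHat 2.0.11 and counted with HTSeq in union mode, without normalization. Tallies for reads given to no gene, 9.82% to 12.7% of all tallied pairs for those on no feature, were removed. Following the study, a gene was left out where neither condition reached 5 counts over its 3 libraries.

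Counts were scaled by TMM and compared in edgeR 4.0.16 under R 4.3.3 with the robust quasi-likelihood test and Benjamini-Hochberg adjustment over all 23074 genes. The study used DESeq2, which was an alternative here (version 1.42.0). No exact test of 3 libraries against 3 can fall below 0.1. The study states in general that its replicates were independent and biological, and no label says this of each library. If they were not, p-values measure only the spread between these libraries, which may be technical. Library pairs were checked for copies, and none was found. The procedure was tested on simulated data.

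The 10 members and the lists were chosen with earlier results of these data known. Named genes were the members, up to 3 rises and 3 falls past the threshold in each list, the 5 profiles nearest to TAF13 and its neighbours. Positions, lengths and 3′ UTRs of at least 50 nt come from GENCODE 44 on hg19, and the letters of the siRNA target from the study's plasmid table. A count fit with other scales, filters, a replicate block, a stricter threshold of 0.01 and each library left out was also made. Matches of the seed words in the other members are not reported here.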

Additional observations from a re-analysis of the deposited data

How the results depend on the processing

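With 3 libraries a side, 1 library can move counts of calls. The percentage of all tested genes called moved too, from 31.6% to 28.3% with the replicate block and 32.6% with library totals. With 1 library left out it was 23.1% to 44.2%, the highest without GLCC1 siRNA replicate 2. The percentage at an adjusted p under 0.01 was not worked out, so nothing is read from the counts at that threshold. The other counts for each list below stand beside the percentages given here. The log2 fold change of TAF13 was -2.47 with the replicate number as a block and -2.36 with library totals as the scale, and -2.62 to -2.38 with 1 library left out in turn. No member that passed changed sign under any alternative run. The 10 genes gave 3 calls, 2 with the block and 2 at an adjusted p under 0.01, and 2 to 7 with 1 library left out, the 7 without GLCC1 siRNA replicate 2. The deviations of same-numbered libraries from their group means correlated at -0.25 to -0.0026, so the numbers are not taken to pair them. Other TFIID subunits gave 4 calls, 2 with the block, 2 at 0.01 and 2 to 6 with 1 library left out. The relatives of TBP gave 0 calls, 2 with library totals, where the median of all genes was 0.15 in place of 0.03, and 0 to 1 with 1 library left out. The partners of polymerases I and III gave 1, 0 with the block, 0 at 0.01 and 0 to 3 with 1 library left out. Other general factors gave 4, 3 with the block and 3 to 7 with 1 library left out. SAGA gave 7, 11 with library totals and 5 to 12 with 1 library left out. RNA polymerase II gave 6, and 4 with library totals, 4 at 0.01 and 3 to 8 with 1 library left out. Of the counts with 1 library left out, the highest of each list was the one without GLCC1 siRNA replicate 2. TAF13 ranked 3 by level per exon union and 2 with the canonical transcript, an alternative chosen after seeing the data, as was the window of 500 kb. The causes of these changes were not tested.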
